A study of Mus musculus with 12 samples.

Results

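The T-cell receptor beta V segments were taken as every row of the deposited gene count table whose symbol starts with Trbv, which gave 35 of 54351 rows. GENCODE annotates 22 of the 35 as V genes and 13 as V pseudogenes, and all lie on mouse chromosome 6 (GRCm38, chr6:40891229-41558452). The series holds poly(A) RNA-seq libraries of 12 mouse samples, 3 in each of 4 groups. The LN3 spleen and LN3 thymus groups came from the spleen and the thymus of overtly sick mice of the genotype LN3 tg with T-ALL, a leukaemia of immature T cells. WT CD8 were spleen cells of tumour-free wild-type mice after negative selection for CD8 T cells, with a stated purity of 85 to 95%, and WT thymocytes were all cells of the thymus of such mice. The labels give the strain as C57BL/6 in all 4 groups. They do not name the transgene or its promoter, and the LN3 organs were dissociated mechanically without enrichment of the leukaemia cells, so that LN3 libraries may hold RNA of other cells. Separate animals within a group are not stated either, and p-values therefore reflect the spread of these libraries, part of which may be technical.

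The beta chain of the T-cell receptor is made by V(D)J recombination. A developing thymocyte cuts and joins a V, a D and a J segment of the Trb locus, and the joined exon is spliced to the constant segment Trbc1 or Trbc2. Each cell usually keeps a single productive beta chain, so a mixed population of T cells uses many V segments, while the progeny of a cell that has already recombined share its V segment. V segments upstream of a chosen V stay in the genome and those between the joined segments are removed, except for Trbv31, which lies downstream of the constant segments in the opposite orientation and is joined by inversion.

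The segment that led all 6 LN3 libraries was Trbv5, a V gene (chr6:41062332-41062803, plus strand). Its V exon, which encodes nearly all of the variable domain that the segment contributes, spans chr6:41062512-41062803 and reads as follows in the GENCODE transcript, with the codon of the conserved cysteine, where the third complementarity-determining region (CDR3) begins, in capitals.
Trbv5: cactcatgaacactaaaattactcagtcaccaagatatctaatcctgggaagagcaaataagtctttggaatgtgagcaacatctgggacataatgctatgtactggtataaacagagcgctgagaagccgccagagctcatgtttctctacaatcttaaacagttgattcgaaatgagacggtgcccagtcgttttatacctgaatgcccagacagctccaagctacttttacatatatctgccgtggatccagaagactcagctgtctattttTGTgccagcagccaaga

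The last 45 bases of the V exon are shown for 6 of the other segments that ranked among the first 3 in at least 1 library, because this is the end that recombination joins to D and J. They are Trbv31 (chr6:41557691-41557735, minus strand) and, on the plus strand, Trbv13-2 (chr6:41121788-41121832), Trbv3 (chr6:41048784-41048828), Trbv13-1 (chr6:41116424-41116468), Trbv12-2 (chr6:41119320-41119364) and Trbv16 (chr6:41152186-41152230). Trbv20 and Trbv2 also ranked among the first 3 of a library and are not shown. The capitals again mark the cysteine codon.
Trbv31: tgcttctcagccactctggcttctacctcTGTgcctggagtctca
Trbv13-2: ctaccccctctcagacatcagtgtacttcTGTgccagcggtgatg
Trbv3: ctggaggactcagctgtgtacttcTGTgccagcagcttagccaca
Trbv13-1: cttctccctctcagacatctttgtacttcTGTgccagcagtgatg
Trbv12-2: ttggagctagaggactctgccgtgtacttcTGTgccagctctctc
Trbv16: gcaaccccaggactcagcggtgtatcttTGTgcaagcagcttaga
Between 12 and 18 bases follow the cysteine codon in these segments, and 14 in Trbv5. Trbv5 shares no stretch of 31 bases, the word length in which kallisto compares reads by default, with any other Trbv row, and its closest relative, Trbv4, has 61.3% identity to it. Stretches of 31 bases are shared between rows of the Trbv12 and Trbv13 families only, among 6 rows, and cover at most 11.3% of a row, so values within these 2 families are less certain. Trbv4 and Trbv5 each share such stretches with a noncoding RNA row, 5830405F06Rik, and their counts are uncertain to that extent.

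Total counts per library ran from 12694571 to 42483898, and summed Trbv counts from 2267 to 9768. The 7 T-lineage markers were present in all 12 libraries, with summed levels of 3143 to 3316 CPM (counts scaled to library size with TMM factors) in LN3 spleen, 2760 to 4717 in LN3 thymus, 1712 to 2604 in WT CD8 and 3127 to 6678 in WT thymocytes. B-cell markers summed to 251.5 to 1901 CPM in LN3 spleen, 279.9 to 459.6 CPM in LN3 thymus, 454.3 to 1258 CPM in WT CD8 and 340.1 to 586.6 CPM in WT thymocytes, and the 4 erythroid markers to 1138 to 3915 CPM in LN3 spleen, 5.41 to 96.0 CPM in LN3 thymus, 24.4 to 402.3 CPM in WT CD8 and 10.9 to 2496 CPM in WT thymocytes. NK-cell markers reached at most 9.07 CPM in sum in LN3 libraries, with Ncr1 at 0 in some, and 118.2 to 305.3 CPM in WT CD8, and myeloid markers reached 588.3 CPM in LN3 and 2420 CPM in WT libraries. Co-receptor genes (Cd4, Cd8a and Cd8b1) summed to 220 to 335.5 CPM in LN3 spleen, 295.5 to 616.2 CPM in LN3 thymus, 1050 to 1696 CPM in WT CD8 and 2724 to 5416 CPM in WT thymocytes. Xist, which is expressed in female cells, had 15, 139007 and 40682 counts in LN3 spleen libraries 1 to 3 and 51, 47 and 141406 counts in LN3 thymus libraries 1 to 3. The libraries numbered T-ALL 2 thus differed in Xist between the organs, and each LN3 group held libraries with low and with high Xist. Levels of other cell types' markers moved with the groups, and their part in the results below was not tested.

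Trbv5 held most of the Trbv counts in every LN3 library and a few percent in every WT library. Its share of the summed Trbv counts was 81.1, 90.3 and 95.9% in LN3 spleen libraries 1 to 3. It was 65.6, 78.7 and 88.5% in LN3 thymus libraries 1 to 3. In WT CD8 libraries the share was 1.94, 2.52 and 2.36%, and in WT thymocyte libraries it was 4.06, 3.47 and 3.96%. No LN3 library came near a WT library. Exact Clopper-Pearson 95% intervals were narrow against this gap, at 64.4 to 66.8% in the lowest LN3 library (LN3 thymus 1) and 95.3 to 96.5% in the highest (LN3 spleen 3). The leading share averaged 89.1 ± 7.49% in LN3 spleen, 77.6 ± 11.48% in LN3 thymus, 11.6 ± 0.99% in WT CD8 and 12.7 ± 1.27% in WT thymocytes (SD, n = 3 each). Trbv5 led the libraries with low and with high Xist alike.

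**Figure D1:**
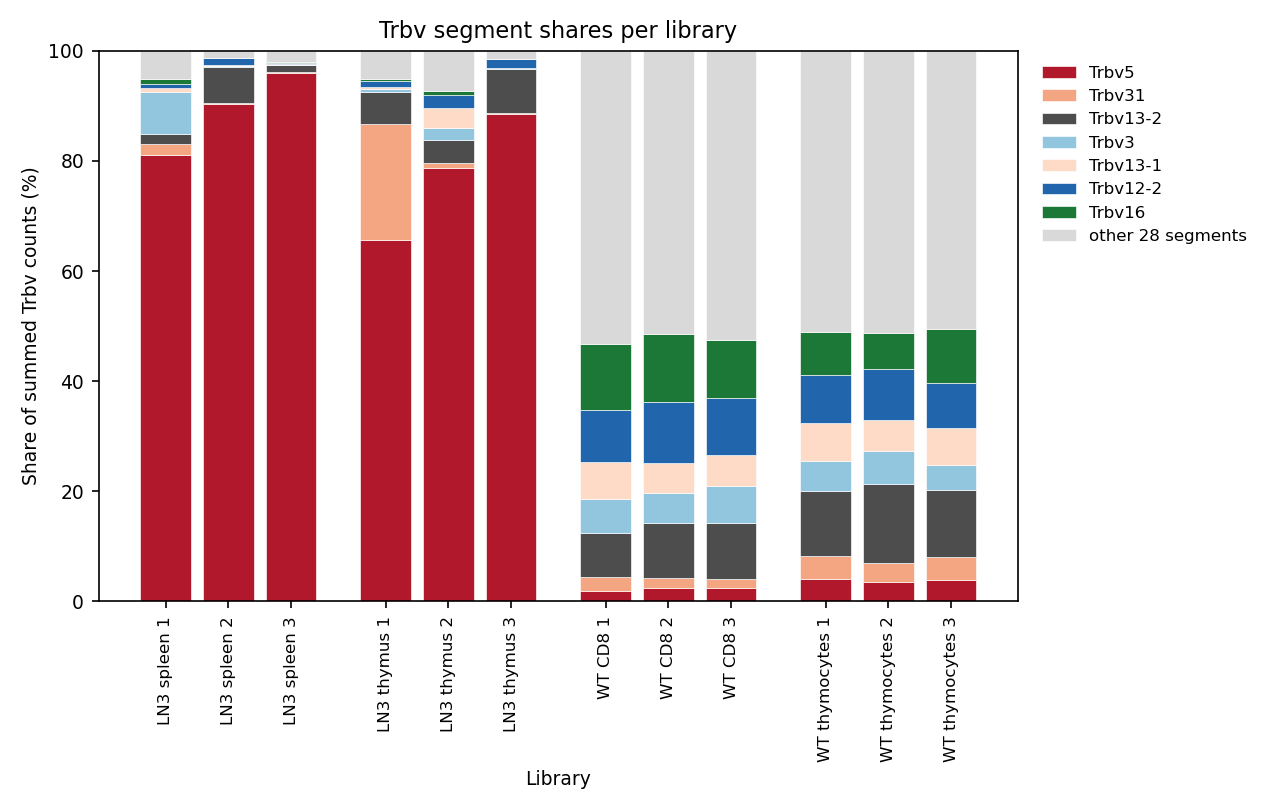
Share of the summed Trbv counts (%, y axis) in each of the 12 libraries (x axis), for 7 named segments and the other 28 together. Trbv5 (dark red) fills 65.6 to 95.9% of the LN3 bars and 1.94 to 4.06% of the WT bars.

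The level of Trbv5 relative to all genes showed the same contrast. Trbv5 had 187.2, 196.6 and 251.9 CPM in LN3 spleen, 166.5, 294.7 and 199.6 CPM in LN3 thymus, 2.40, 3.58 and 5.06 CPM in WT CD8 and 15.5, 9.88 and 21.6 CPM in WT thymocytes. In edgeR's quasi-likelihood test with Benjamini-Hochberg adjustment over 20897 genes, Trbv5 was 57.0-fold higher in LN3 spleen than in WT CD8 (log2 difference 5.83, SE 0.41, adjusted p = 2.62e-06). It was 14.1-fold higher in LN3 thymus than in WT thymocytes (log2 difference 3.82, SE 0.38, adjusted p = 7.79e-05). The libraries of each pair of groups did not overlap. In bulk RNA, more cells that use a segment and more RNA of it per cell cannot be told apart.

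The LN3 against WT difference of Trbv5 was larger in the spleen pair than in the thymus pair, by 2.02 on the log2 scale (edgeR interaction term, adjusted p = 0.0345). Of all genes tested, 4.19% were called in this interaction, and Trbv5 was the only Trbv row among the 23 tested. Between the LN3 organs the log2 difference of Trbv5, LN3 spleen minus LN3 thymus, was -0.06 (SE 0.33, adjusted p = 0.98), with overlapping libraries. Between the WT groups Trbv5 was 4.21-fold lower in WT CD8 than in WT thymocytes (log2 difference -2.07, SE 0.36, adjusted p = 0.00201). LN3 spleen averaged 211.9 ± 34.9 CPM, LN3 thymus 220.2 ± 66.5 CPM, WT CD8 3.68 ± 1.33 CPM and WT thymocytes 15.7 ± 5.86 CPM (SD, n = 3 each).

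Behind Trbv5, the LN3 libraries differed from each other in the segments that ranked next. In LN3 spleen 1 the second segment was Trbv3 with 7.55% (exact 95% interval 6.58 to 8.63%), and Trbv13-2 and Trbv31 tied for the third place with 51 counts each, 1.93%. In LN3 spleen 2 the second was Trbv13-2 with 6.55% and the third Trbv12-2 with 1.24%. In LN3 spleen 3 they were Trbv13-2 with 1.21% and Trbv20 with 0.650%. Trbv13-2 thus stood among the first 3 segments in all 3 LN3 spleen libraries. In LN3 thymus 1 the second segment was Trbv31 with 21.1% (interval 20.1 to 22.2%, 1277 counts) and the third Trbv13-2 with 5.75%. LN3 thymus 2 had Trbv13-2 with 4.06% and Trbv13-1 with 3.60%. In LN3 thymus 3 they were Trbv13-2 with 7.98% and Trbv12-2 with 1.71%.

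The 21.1% of Trbv31 in LN3 thymus 1 stood alone. Trbv31 held 1.93, 0.146 and 0.217% in LN3 spleen, 1.02 and 0.175% in LN3 thymus 2 and 3, 2.51, 1.68 and 1.71% in WT CD8 and 4.17, 3.60 and 4.10% in WT thymocytes. In CPM it had 53.6 in LN3 thymus 1, 3.81 and 0.394 in LN3 thymus 2 and 3, and 15.9, 10.2 and 22.4 in WT thymocytes. Trbv31 did not pass the test between LN3 thymus and WT thymocytes (log2 difference 0.26, SE 1.19, edgeR adjusted p = 0.92), where the spread within LN3 thymus was wide. Trbv3 in LN3 spleen 1 was likewise a value of 1 library, since LN3 spleen 2 and 3 had 0.279 and 0.130%.

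WT libraries had a similar order of segments to each other. Trbv16 was first in all 3 WT CD8 libraries with 11.95, 12.4 and 10.5%, followed by Trbv12-2 with 9.53, 10.9 and 10.2% and Trbv13-2 with 7.98, 10.1 and 10.1%. Trbv13-2 was first in all 3 WT thymocyte libraries with 11.8, 14.2 and 12.2%. The next 2 places of WT thymocytes went to Trbv12-2 (8.66%) and Trbv16 (7.85%) in library 1, to Trbv12-2 (9.36%) and Trbv2 (8.48%) in library 2 and to Trbv16 (9.73%) and Trbv12-2 (8.19%) in library 3. Intervals of neighbouring places often overlapped: in WT CD8 3, Trbv16 had 9.93 to 11.2%, Trbv12-2 9.63 to 10.8% and Trbv13-2 9.55 to 10.8%. Shares are of counts and not per length. Per annotated transcript length, Trbv5 still led all 6 LN3 libraries with 64.3 to 95.9%, and Trbv13-2 in place of Trbv16 led WT CD8 3.

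The segments that led in WT libraries were scarcer in LN3. Trbv16 held 0.831, 0 and 0.152% in LN3 spleen and 0.331, 0.751 and 0.0250% in LN3 thymus, all below its lowest WT share of 6.49%. Trbv13-2 held 1.93, 6.55 and 1.21% in LN3 spleen and 5.75, 4.06 and 7.98% in LN3 thymus, and these lay below the 7.98 to 14.2% of the WT libraries, with LN3 thymus 3 (7.980%) and WT CD8 1 (7.984%) almost level. Trbv12-2 reached at most 2.34% in an LN3 library, against at least 8.19% in a WT library. Apart from Trbv5, 8 segments reached 1% in any LN3 library, and Trbv13-2 was the only one of them to do so in all 6. In each WT library 19 segments held at least 1%, and they were the same 19 in all 6.

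The 13 segments that reached 5% in a WT library were picked by their WT shares, and Trbv5 leaves little share for others in LN3. Lower LN3 shares were thus largely set in advance, and the counts that follow are a description and not a test. All 13 had lower shares in LN3 thymus than in WT thymocytes without overlap. In LN3 spleen against WT CD8, 12 had lower shares without overlap. The exception was Trbv3, whose 7.55% in LN3 spleen 1 lay above every WT library. Trbv1 held 0 to 0.113% in LN3 spleen, 0 to 0.0166% in LN3 thymus, 6.27 to 7.15% in WT CD8 and 5.52 to 6.40% in WT thymocytes. Trbv12-1 held 0.0399 to 0.151% in LN3 spleen, 0 to 0.133% in LN3 thymus, 4.69 to 6.04% in WT CD8 and 4.89 to 5.33% in WT thymocytes. Trbv29 held 0.0399 to 0.227% in LN3 spleen, 0.0125 to 0.376% in LN3 thymus, 4.89 to 5.31% in WT CD8 and 3.27 to 3.67% in WT thymocytes. For these 3 segments every LN3 library lay under 1%. Trbv15 held 0.0399 to 0.340% in LN3 spleen, 0.0125 to 0.381% in LN3 thymus, 3.53 to 3.92% in WT CD8 and 4.70 to 5.15% in WT thymocytes. Trbv19 held 0.0266 to 1.77% in LN3 spleen, 0.0125 to 2.39% in LN3 thymus, 4.54 to 5.23% in WT CD8 and 4.96 to 6.20% in WT thymocytes. Trbv13-1 reached 3.60% in LN3 thymus 2 and Trbv2 reached 1.48% there, while Trbv14 and Trbv17 stayed at or under 0.265% in every LN3 library.

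**Figure D2:**
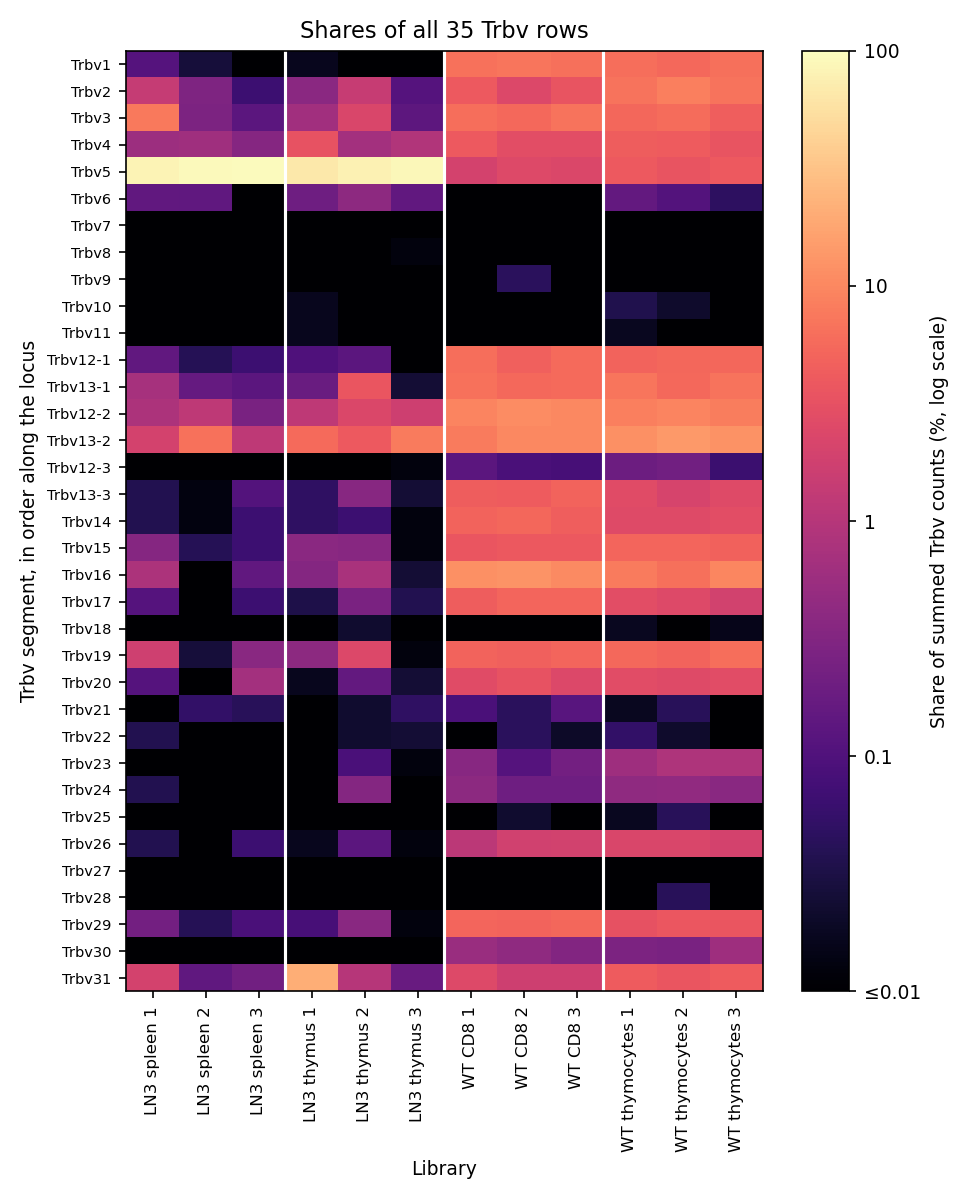
Share of the summed Trbv counts (%, colour, log scale, values at or below 0.01% drawn black) for all 35 Trbv rows in order along chromosome 6 (y axis) in the 12 libraries (x axis). Trbv5 is the bright row in the 6 LN3 libraries, and 19 segments hold 1% or more in every WT library.

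The diversity of the counts was summarised as the effective number of segments, the exponential of the Shannon entropy of the shares, which equals the number of equally used segments that would give the same entropy. It was 2.42, 1.55 and 1.31 in LN3 spleen and 3.02, 2.84 and 1.62 in LN3 thymus. It was 17.8, 17.2 and 17.5 in WT CD8 and 18.5, 17.9 and 17.9 in WT thymocytes. LN3 spleen averaged 1.76 ± 0.584 against 17.5 ± 0.335 in WT CD8, and LN3 thymus 2.495 ± 0.760 against 18.1 ± 0.325 in WT thymocytes (SD, n = 3 each). LN3 and WT did not overlap, and the LN3 organs overlapped. The number of segments with 1% or more was 6, 3 and 2 in LN3 spleen, 5, 8 and 3 in LN3 thymus and 19 in every WT library. The 3 leading segments together made up 90.6 to 98.1% in LN3 spleen, 86.3 to 98.2% in LN3 thymus, 29.5 to 33.5% in WT CD8 and 28.3 to 32.0% in WT thymocytes.

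Without Trbv5 the remaining counts of LN3 libraries were uneven to very different degrees. The effective number over the other 34 rows was 8.22, 3.50 and 10.7 in LN3 spleen, 3.84, 11.7 and 3.07 in LN3 thymus, 17.1, 16.4 and 16.8 in WT CD8 and 17.5, 17.0 and 17.0 in WT thymocytes. These values rest on 501, 728 and 189 counts in LN3 spleen and 2076, 965 and 919 counts in LN3 thymus, against 2223 to 9537 in WT CD8 and 4476 to 6089 in WT thymocytes. LN3 spleen 2 and LN3 thymus 3 were the libraries where Trbv13-2 dominated the rest, with 67.6 and 69.5% of the counts outside Trbv5, and in LN3 thymus 1 Trbv31 held 61.5% of them. The low count of LN3 spleen 3 limits the precision of its value.

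**Figure D3:**
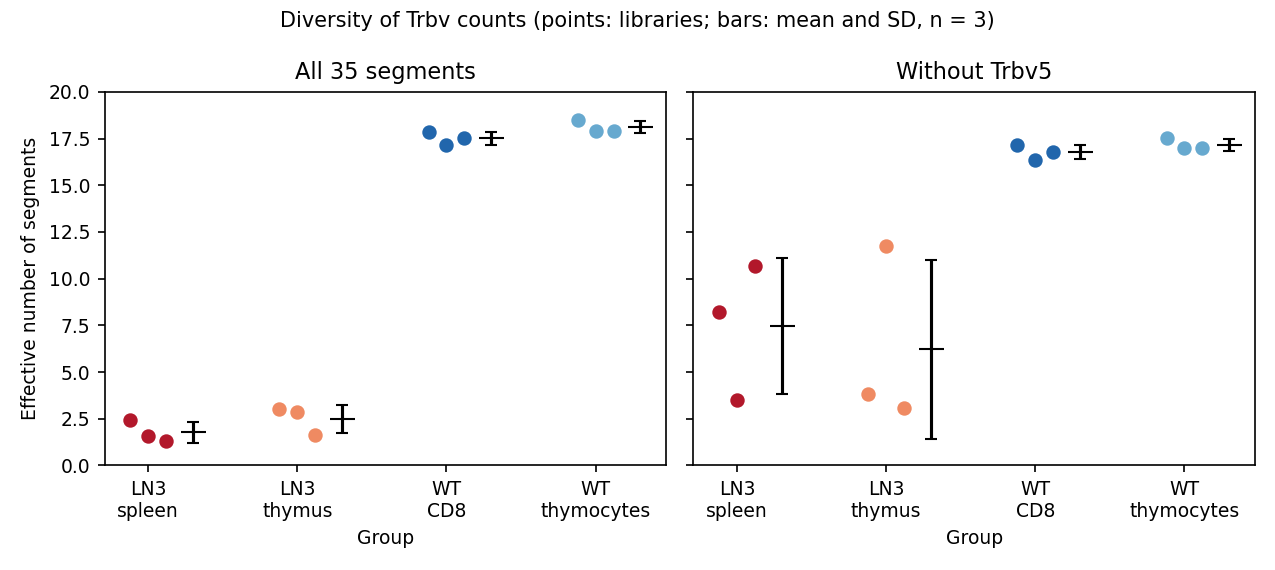
Effective number of segments (y axis) by group (x axis), over all 35 Trbv rows (left) and over the 34 rows other than Trbv5 (right). Points are libraries, and black bars are the mean and SD of 3 libraries. LN3 libraries lie between 1.31 and 3.02 on the left and between 3.07 and 11.7 on the right, below all WT libraries in both panels.

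The fall in the shares of other segments follows in part from the rise of Trbv5, since shares sum to 100%, so levels relative to all genes are given as well. Summed over all 35 rows, Trbv reached 230.9, 217.6 and 262.6 CPM in LN3 spleen, 253.7, 374.5 and 225.5 CPM in LN3 thymus, 123.9, 141.6 and 213.8 CPM in WT CD8 and 382.4, 284.4 and 545.4 CPM in WT thymocytes. The total was thus above WT CD8 in every LN3 spleen library, and LN3 thymus overlapped WT thymocytes. Without Trbv5 the sum was 43.7, 21.1 and 10.8 CPM in LN3 spleen, 87.2, 79.8 and 25.9 CPM in LN3 thymus, 121.5, 138.0 and 208.8 CPM in WT CD8 and 366.8, 274.6 and 523.8 CPM in WT thymocytes. Trbv5 was left out because it led the LN3 libraries in these data, while the leading segments of WT were kept. A lower LN3 remainder was thus favoured by the choice, and these sums are a description and not a test. The sum of the segments other than Trbv5 was lower in LN3 on this scale too, with no overlap in either pair of groups. Single segments did not all follow, and Trbv31, for example, overlapped in both pairs.

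Of the 35 rows, 23 had enough counts to be tested, 21 V genes and 2 pseudogenes. A row that passed the filter on low counts only through its WT libraries had to differ, so the counts that follow are a description of the tested rows. The 12 others, 1 V gene (Trbv21) and 11 pseudogenes, had at most 12 counts in any library, and 2 of them had none in all 12. In LN3 thymus against WT thymocytes, 1 tested row was called higher and 16 lower (adjusted p below 0.05), where 11.3% of all genes tested were called, 6.06% higher and 5.21% lower. In LN3 spleen against WT CD8, 2 were called higher and 13 lower, where 30.9% of all genes were called, 17.9% higher and 13.0% lower. The median log2 difference over the tested Trbv rows was -4.54 in the thymus pair and -4.18 in the spleen pair, and over all genes -0.04 and -0.11. The 13 rows lower in the spleen pair were also lower in the thymus pair, and Trbv5 was higher in both.

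Trbv1, the most upstream segment of the locus, had 3, 2 and 0 counts in LN3 spleen and 1, 0 and 0 in LN3 thymus, against 149, 320 and 612 in WT CD8 and 345, 256 and 406 in WT thymocytes. Its log2 difference was -6.87 (SE 0.79, edgeR adjusted p = 9.15e-05) in the spleen pair. Between LN3 thymus and WT thymocytes, where LN3 thymus held 1 count in all and WT thymocytes 1007, the call was also lower (edgeR adjusted p = 4.24e-05), and the ratio of WT thymocytes over LN3 thymus was 1683, with an exact 95% counting interval of 301.4 to 66539. Trbv14 had 1, 1 and 3 counts in LN3 spleen and 3, 3 and 1 in LN3 thymus, against 112 to 431 in WT CD8 and 122 to 180 in WT thymocytes. Its log2 difference was -6.40 (SE 0.75, edgeR adjusted p = 9.76e-05) in the spleen pair and -6.55 (SE 0.73, adjusted p = 0.000205) in the thymus pair. Both segments had at most 3 counts in every LN3 library.

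Trbv30 had no count in any LN3 library, against 12 to 32 counts in WT CD8 and 12 to 37 in WT thymocytes. With 3 counts per library as the floor, its mean in WT CD8 was 3.77-fold the mean floor of LN3 spleen. Its mean in WT thymocytes was 10.9-fold the mean floor of LN3 thymus. Ratios of this kind leave out the spread of the group with counts and are not bounds. Trbv23 was at 0 in LN3 spleen and at 8, 5 and 22 counts in WT CD8. Its WT CD8 mean was 2.07-fold the mean floor of LN3 spleen (0.173 CPM), and WT CD8 2, at 0.158 CPM, lay below that floor. The call of Trbv23 in the spleen pair was lost without LN3 spleen 2 (edgeR adjusted p = 0.0540). In the thymus pair the log2 difference of Trbv23 was -5.12 (SE 0.999, edgeR adjusted p = 0.00867).

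Other named segments fell as well. In the thymus pair the log2 differences were -6.61 for Trbv12-1, -5.91 for Trbv20, -5.83 for Trbv26, -4.88 for Trbv16, -4.88 for Trbv29 and -4.83 for Trbv17, with edgeR adjusted p between 0.000778 and 0.0230. The call of Trbv20 was lost without LN3 thymus 1 or 3 (adjusted p = 0.0511 and 0.0512), and that of Trbv16 without LN3 thymus 1 or without WT thymocytes 1 or 3 (0.0807, 0.0565 and 0.0654). In the spleen pair they were -6.04 for Trbv17, -5.81 for Trbv13-3, -5.58 for Trbv12-1 and -5.13 for Trbv26, with adjusted p between 0.000808 and 0.00361. Called rows lay on both sides of Trbv5 along the chromosome. Among the segments upstream of it, Trbv1 and Trbv4 were called lower in both pairs, Trbv2 in the thymus pair and Trbv3 in neither. The log2 difference of Trbv4 was -2.08 in the spleen pair and -1.84 in the thymus pair, and that of Trbv2 was -3.75 in the thymus pair (edgeR adjusted p = 0.0120, 0.0390 and 0.0350). In the thymus pair the calls of Trbv4 and Trbv2 each held in 1 of the 6 fits that leave out a library, without LN3 thymus 1 for Trbv4 and without LN3 thymus 2 for Trbv2, and in the spleen pair that of Trbv4 was lost without LN3 spleen 3.

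Trbv6, a pseudogene whose start lies 4076 bases after the end of Trbv5, was the other row called higher in the spleen pair. It had 4, 11 and 0 counts in LN3 spleen, 12, 19 and 12 in LN3 thymus, 0 in all 3 WT CD8 libraries and 9, 5 and 3 in WT thymocytes. It was called higher in LN3 spleen than in WT CD8 (edgeR adjusted p = 0.0237), although LN3 spleen 3 also had none. With the floor of 3 counts per library, its LN3 spleen mean was 2.06-fold the mean floor of WT CD8, which is not a bound. The call was lost without LN3 spleen 2, WT CD8 2 or WT CD8 3 (adjusted p = 0.0753, 0.0555 and 0.0689). At this depth Trbv6 is at the edge of detection.

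The remaining tested rows were not called. In the thymus pair these were Trbv13-1, Trbv19, Trbv24, Trbv3, Trbv31 and Trbv6. In the spleen pair they were Trbv13-1, Trbv13-2, Trbv19, Trbv2, Trbv20, Trbv24, Trbv3 and Trbv31. Trbv13-2 had 4.45, 14.2 and 3.19 CPM in LN3 spleen and 9.89, 14.3 and 21.7 CPM in WT CD8, which overlap (log2 difference -1.05, SE 0.49, edgeR adjusted p = 0.114). In the thymus pair it had 14.6, 15.2 and 18.0 CPM in LN3 thymus against 45.3, 40.4 and 66.3 CPM in WT thymocytes (log2 difference -1.67, SE 0.49, adjusted p = 0.0455). This call was lost whichever of the 6 libraries was left out, and with a replicate block across genotypes. The interaction term did not call Trbv13-2.

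**Figure D4:**
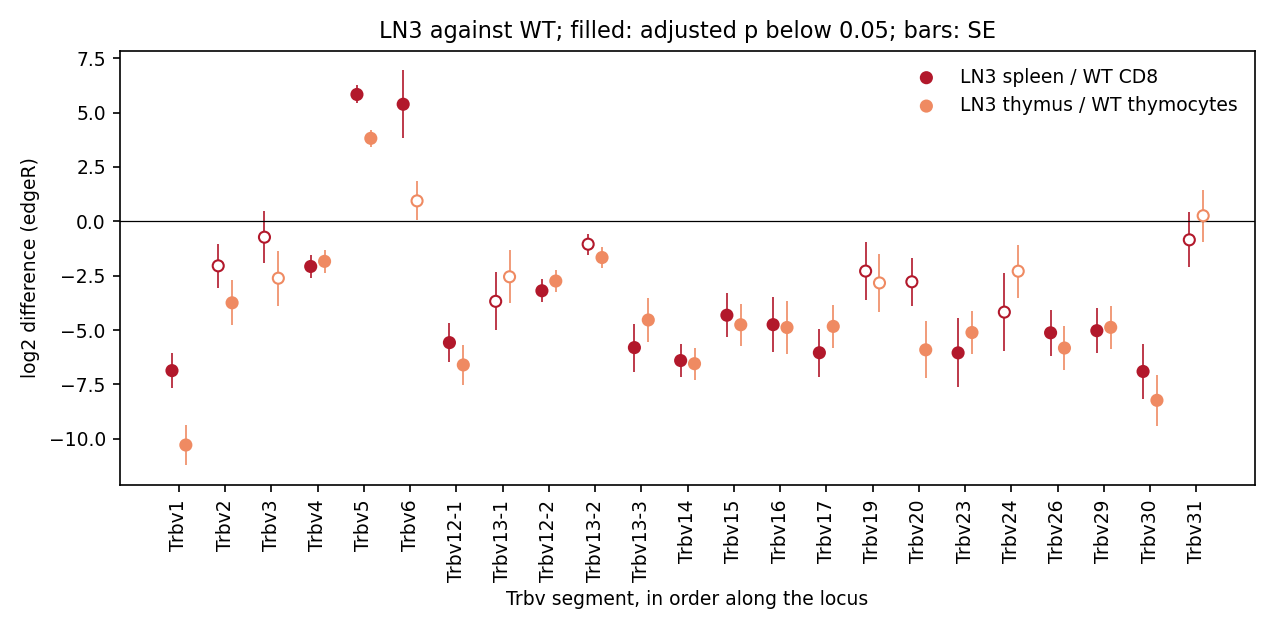
edgeR log2 differences (y axis, bars are SE) of the 23 tested Trbv rows in order along chromosome 6 (x axis), LN3 spleen over WT CD8 (dark red) and LN3 thymus over WT thymocytes (orange). Filled points passed an adjusted p of 0.05. Values of rows with no count in a group (Trbv6, Trbv23 and Trbv30), and of Trbv1 with 1 count in LN3 thymus, depend on the fit and are not bounds. Trbv5 is at 5.83 and 3.82, and 16 and 13 rows in the thymus and spleen pairs are filled below 0.

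Between the LN3 organs edgeR called none of the 23 tested rows, with 0 higher and 0 lower in LN3 spleen than in LN3 thymus. Of all genes tested, 0.723% were called in this comparison, 0.694% higher and 0.0287% lower. At an unadjusted p under 0.05 there were 4 Trbv rows, Trbv12-2, Trbv13-2, Trbv31 and Trbv4. DESeq2 called 1 row lower, Trbv4, and limma on the deposited log2 values called none. Trbv4 had 1.31, 1.36 and 0.911 CPM in LN3 spleen and 8.57, 2.48 and 2.03 CPM in LN3 thymus (edgeR adjusted p = 0.182), without overlap. These segments were named after their values were seen.

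Between the WT groups 5 tested rows were called lower and 0 higher in WT CD8 than in WT thymocytes, where 15.7% of all genes were called, 8.49% lower and 7.24% higher, and 8 Trbv rows had an unadjusted p under 0.05. DESeq2 called 7 lower and 0 higher, and limma 6 and 0. The 5 were Trbv5, Trbv13-2 (log2 difference -1.72, adjusted p = 0.0316), Trbv4 (-1.63, 0.0499), Trbv23 (-3.09, 0.0284) and Trbv6, which had no count in WT CD8. The Trbv6 mean in WT thymocytes was 3.61-fold the mean floor of WT CD8. Trbv5 was called in this comparison whichever library was left out, and the calls of the other 4 were each lost without at least 1 library, and that of Trbv4 whichever library was left out. In all, 1 row stayed called without WT CD8 2 or WT thymocytes 1, and 2 without WT CD8 1, WT CD8 3 or WT thymocytes 3. The median over the tested rows was -1.51, against 0 over all genes.

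Shares of the WT groups differed in both directions. Ranges did not overlap for 15 of 35 rows, 7 higher and 8 lower in WT CD8 than in WT thymocytes. No such count was made over all genes, so this one is a description of groups of 3 libraries. It includes rows with few counts, Trbv6 with at most 9 and Trbv21 with at most 12 in a WT library. Trbv16 averaged 11.6 ± 0.99% in WT CD8 and 8.02 ± 1.63% in WT thymocytes, Trbv17 4.92 ± 0.48% and 2.43 ± 0.521%, and Trbv14 4.92 ± 0.497% and 2.70 ± 0.12% (SD, n = 3 each). Trbv2 averaged 3.32 ± 0.806% in WT CD8 and 7.37 ± 0.962% in WT thymocytes, Trbv31 1.97 ± 0.475% and 3.96 ± 0.31%, and Trbv13-2 9.41 ± 1.23% and 12.7 ± 1.27%. These averages differed by at most 4.05 percentage points, and those of Trbv5 by 86.8 points between LN3 spleen and WT CD8 and 73.8 points between LN3 thymus and WT thymocytes. The effective numbers of the WT groups, 17.2 to 17.8 in WT CD8 and 17.9 to 18.5 in WT thymocytes, lay close together.

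Likeness between libraries was described by Pearson's r over the segments, which share a library's depth and sum to 100%. Over all 35 rows r was at least 0.949 between LN3 spleen and LN3 thymus libraries, 0.839 to 0.918 between WT CD8 and WT thymocytes and -0.0429 to 0.145 between LN3 and WT libraries. Without Trbv5, over 34 rows, r between the LN3 organs ran from 0.201 to 0.998, with the highest value for LN3 spleen 2 and LN3 thymus 3. Libraries of the same T-ALL number had 0.251, 0.648 and 0.838 for numbers 1 to 3. Within WT CD8 and within WT thymocytes r without Trbv5 was 0.964 to 0.989.

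The J segments and constant segments belong to the same transcripts and were not used to choose the rows. Joining removes the J segments that lay between the D segment and the chosen J. Trbj1-5 had the largest share of the 14 Trbj rows in 11 of 12 libraries, with 21.2 to 31.2% in LN3 libraries and 13.3 to 18.5% in WT libraries. Trbj1-1, Trbj1-2 and Trbj1-3 together held 29.4, 0.211 and 0.423% in LN3 spleen and 0.726, 29.5 and 0.0713% in LN3 thymus, against 34.7, 27.2 and 23.6% in WT CD8 and 22.7, 22.1 and 23.6% in WT thymocytes. In 4 of the 6 LN3 libraries these 3 segments were thus nearly without counts, while LN3 spleen 1 and LN3 thymus 2 lay within the range of the WT libraries. The Trbj shares of these 2 libraries had r = 0.99 with each other over 14 rows, and LN3 spleen 2 and LN3 thymus 3 had 0.993.

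Of the 14 Trbj rows, 3 (21.4%) were called in the spleen pair, where 30.9% of all genes were called, and 1 (7.14%) in the thymus pair, where 11.3% were. Those of the spleen pair were higher in the LN3 group (Trbj1-6, Trbj1-7 and Trbj2-1, log2 differences 1.11, 0.95 and 2.11), that of the thymus pair was lower in the LN3 group (Trbj2-5, -1.87), and between the LN3 organs 0 of 14 were called by edgeR, with 2 at an unadjusted p under 0.05, where 0.723% of all genes were called. Trbc1 made up 72.8, 80.0 and 69.9% of the counts of both constant segments in LN3 spleen and 52.9, 73.3 and 79.7% in LN3 thymus. It made up 38.0, 36.4 and 35.6% in WT CD8 and 41.2, 39.8 and 37.8% in WT thymocytes. The LN3 libraries all lay above the WT libraries, and LN3 thymus 1, the library with the high Trbv31 share, lay lowest among them. The 2 constant rows share 44.8 and 48.5% of their stretches of 31 bases, so the split between them is less certain than their sum.

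**Figure D5:**
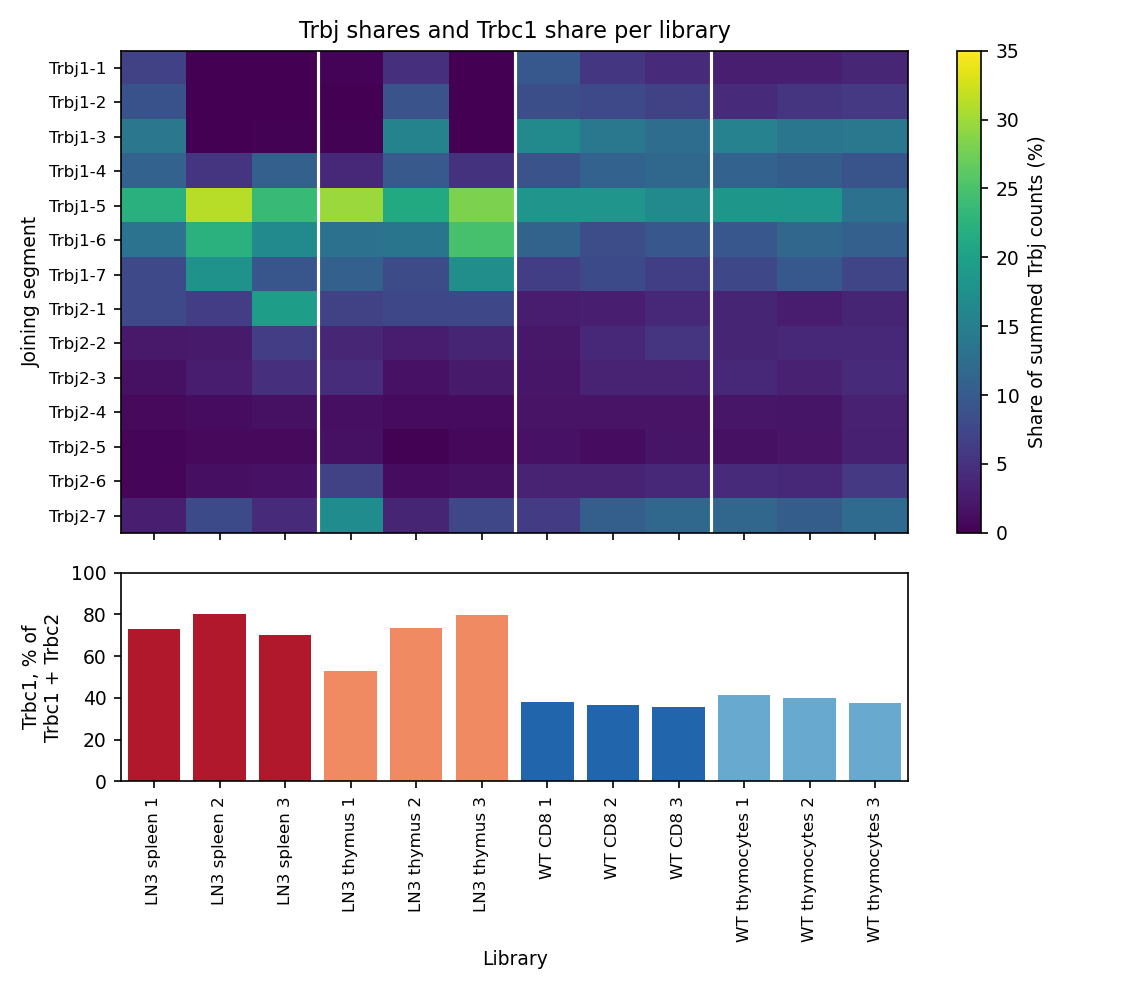
Upper panel, share of the summed Trbj counts (%, colour) for the 14 Trbj rows (y axis) in the 12 libraries (x axis). Lower panel, Trbc1 as a percent of Trbc1 and Trbc2 counts. Trbj1-1 to Trbj1-3 are dark in 4 LN3 libraries, and Trbc1 is at 52.9 to 80.0% in LN3 and 35.6 to 41.2% in WT libraries.

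V counts were also set against the counts of Trbc1 and Trbc2 together. There were 10.995, 12.5 and 10.6 Trbv counts per 100 Trbc counts in LN3 spleen, 17.6, 12.2 and 12.1 in LN3 thymus, 21.3, 27.8 and 26.7 in WT CD8 and 20.5, 18.4 and 18.2 in WT thymocytes. By the Trbv rows alone, the LN3 libraries thus had fewer V counts per constant count than the WT libraries of their pair. The gap was small in the thymus pair, with 17.6 in LN3 thymus 1 and 18.2 in WT thymocytes 3. Counts of 5830405F06Rik, which may hold reads of Trbv5 and reached 542 in LN3 thymus 1, were left out. The order in the thymus pair is uncertain to that extent. Which V was joined to which J or constant segment, and whether a count came from a joined or an unjoined transcript, was not tested, since the table gives rows per gene.

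Other genes of the beta chain and its assembly were followed as lists. Of 10 partner genes (Trbc1, Trbc2, Trbd1, Trbd2, Ptcra, Trac and 4 CD3 chains), 8 were tested, and Trbd1 and Trbd2 had no count. In the spleen pair 3 were called higher in LN3 spleen than in WT CD8: Trbc1 (log2 difference 2.75), Ptcra, the pre-T-cell receptor alpha chain that pairs with a new beta chain in thymocytes (17.7 ± 12.2 CPM against 0.320 ± 0.091 CPM, SD, n = 3 each, log2 difference 5.72), and Cd3e (0.91), with 0 lower. In the thymus pair Cd247, the CD3 zeta chain, was called lower in LN3 thymus (log2 difference -1.49) and 0 were higher. These are 37.5% of the 8 in the spleen pair and 12.5% in the thymus pair, near the 30.9 and 11.3% called among all genes. The median over the 8 was 0.80 in the spleen pair and 0.24 in the thymus pair, against -0.11 and -0.04 over all genes.

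Of 10 genes of recombination and end joining, 5 were called higher and 0 lower in LN3 spleen than in WT CD8, among them Rag1, a subunit of the recombinase (258.2 ± 158.7 CPM against 2.28 ± 2.09 CPM, log2 difference 6.82), and Dntt, which adds bases at the joints (503.4 ± 231.3 CPM against 5.39 ± 0.354 CPM, 6.54; SD, n = 3 each). In LN3 thymus against WT thymocytes, Rag1 fell to 512.9 ± 368.6 CPM, against 4870 ± 469.3 CPM (log2 difference -3.25, edgeR adjusted p = 0.0127), and Xrcc5, a subunit of the end-binding protein Ku, was higher (1.13). Among all genes 17.9% were called higher in the spleen pair, and 6.06% higher and 5.21% lower in the thymus pair. The median log2 difference over the 10 was 1.95 in the spleen pair and -0.41 in the thymus pair. WT CD8 against WT thymocytes had 5 of the 10 lower and 0 higher, where 8.49% of all genes were lower and 7.24% higher. Between the LN3 organs edgeR called none of the 8 partners or the 10 recombination genes, and none had an unadjusted p under 0.05.

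The row 5830405F06Rik, annotated as a long noncoding RNA, contains the whole V exon of Trbv5 and shares 266 of the 338 stretches of 31 bases of Trbv5 and 267 of the 363 of Trbv4, so reads that fall in the shared parts may have been divided between these rows. It had 290, 1064 and 383 counts in LN3 spleen, 542, 471 and 1017 in LN3 thymus, 32, 49 and 99 in WT CD8 and 160, 162 and 106 in WT thymocytes. It was called higher in LN3 spleen than in WT CD8 (log2 difference 3.83, SE 0.31, edgeR adjusted p = 7.78e-06) and in LN3 thymus than in WT thymocytes (1.60, SE 0.29, adjusted p = 0.00372). Trbv5 had 6.38 to 11.55 counts per count of this row in LN3 libraries and 0.994 to 2.37 in WT libraries. Counted together with it, Trbv5 held 82.95, 91.5 and 96.2% in LN3 spleen, 68.5, 80.7 and 89.8% in LN3 thymus, 3.31, 3.58 and 3.34% in WT CD8 and 6.70, 6.73 and 5.54% in WT thymocytes.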

How the data were processed

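RNA-seq of 12 samples was analysed. The authors deposited estimated counts per gene, of which 100% were whole numbers. The submitters' processing notes name kallisto 0.46.1, FastQC, DESeq2 and the build GRCm38, with no role for each. For limma alone, the log2-scale values deposited by the authors after variance stabilization were taken. Annotation release and strand setting: not given in the sources used here. Sequences, types and coordinates are from GENCODE M21 (GRCm38), matched by symbol for all 35 rows.

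Fits used edgeR 4.0.16 in R 4.3.3 over all 12 libraries, with 4 group means, TMM factors, filterByExpr and robust quasi-likelihood. Of 54351 genes, 16997 had no count and 20897 were tested. Alternatives were other scaling factors, no filter, DESeq2 1.42.0, limma 3.58.1, a replicate block and leaving out each library. Shares, entropies, intervals (Clopper-Pearson 95%) and 31-base words were computed in Python 3.11.15 with scipy 1.17.1. Intervals, and the floor of 3 counts per library used for genes at 0 (0.0657 to 0.262 CPM), cover counting error only. Diversity values and sums over the segments were given no p. The edgeR step was tested on simulated data. Named segments were the first 3 of any library, those with 5% or more in any library, and up to 10 called segments per comparison by size of the log2 difference. Members, lists and tests were chosen with earlier results of these data known. Same-group libraries all differed by more than sampling noise (chi-square per gene of 19.3 or more).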

Additional observations from a re-analysis of the deposited data

Results flagged for a closer look

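Trbv5 was flagged because its LN3 against WT difference was not the same in the 2 organs. It was 1 row called of 23 Trbv rows tested, near the 4.19% called among all genes. The interaction was fitted in the main setting only. Between the LN3 organs the log2 difference of Trbv5 was -0.06. Between WT CD8 and WT thymocytes it was -2.07, where the median over the tested Trbv rows was -1.51. The log2 difference was 5.83 for LN3 spleen over WT CD8 and 3.82 for LN3 thymus over WT thymocytes, and the difference between them was 2.02 (edgeR interaction term over all 12 libraries, unadjusted p = 0.00114, adjusted p = 0.0345). Trbv5 was at 187.2 CPM or more in all 3 LN3 spleen libraries and at 5.06 CPM or less in all 3 WT CD8 libraries, and at 166.5 CPM or more in LN3 thymus and at 21.6 CPM or less in WT thymocytes. WT CD8 were enriched from the spleen and WT thymocytes were not enriched, so organ and cell preparation cannot be told apart in this difference.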

How the results depend on the processing

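Trbv5 remained higher in LN3 spleen than in WT CD8 and in LN3 thymus than in WT thymocytes under every alternative run, with log2 differences of 5.44 to 6.14 and 3.55 to 4.13. Its small difference between LN3 spleen and LN3 thymus turned positive, to 0.0742, with limma on the deposited values, and to 0.0337, 0.00664 and 0.219 without LN3 spleen 1, LN3 spleen 2 and LN3 thymus 2, with adjusted p of 0.816 to 0.997, and leaving out each library gave -0.211 to 0.219. Relative to TMM, library totals moved the median of all genes by -0.399 in the spleen pair and -0.196 in the thymus pair, and upper-quartile factors by -0.325 and -0.167. Of the log2 differences of named segments, 36 lost their call under an alternative, 4 reversed and 311 did not change side.

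The difference in effective number was -15.6 for LN3 thymus minus WT thymocytes, and -11.0 by family, -14.4 with segments at 1% or more, -14.0 as inverse Simpson index and -10.9 without Trbv5. For LN3 spleen minus WT CD8 it was -15.8, and -11.1, -15.0, -14.0 and -9.29 in the same order. For WT CD8 minus WT thymocytes it was -0.58, and -0.16 with segments at 1% or more. The difference in leading share was 64.9 points in the thymus pair, and 55.9 by family and 36.8 without Trbv5, and 77.5 in the spleen pair, and 69.3 and 33.8. For WT CD8 minus WT thymocytes it was -1.09, and -2.81 per transcript length. The cause of these moves was not tested. Leaving out each library gave -16.1 to -15.5 and -15.9 to -15.2 for the effective number in the spleen and thymus pairs and -0.75 to -0.40 between the WT groups, and leading shares of 74.1 to 81.5, 59.4 to 70.9 and -1.53 to -0.36 points.

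DESeq2 called 1 Trbv row lower in LN3 spleen than in LN3 thymus, against 0 by edgeR, and limma called 1 higher in LN3 spleen than in WT CD8, against 2. The cause was not tested. Leaving out each library gave 1 to 2 higher and 13 to 17 lower in the spleen pair, 1 higher and 12 to 18 lower in the thymus pair, 0 to 1 lower and 0 higher between the LN3 organs and 1 to 4 lower and 0 higher between the WT groups, where the lone call without WT CD8 2 or WT thymocytes 1 was Trbv5 and the call between the LN3 organs without LN3 spleen 2 was Trbv13-2.

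Same-numbered libraries did not deviate together (r of -0.528 to -0.0412 between LN3 organs and -0.135 to 0.044 between WT groups, over tested genes). Whether the numbers pair the samples was not tested. Xist had 139007 counts in LN3 spleen 2 and 47 in LN3 thymus 2. It had 73771 counts in WT CD8 3 and 12 in WT thymocytes 3. The replicate blocks take libraries of equal number as belonging together, which the labels do not state, so they are no check of a pairing. A replicate block within genotype left 2 lower calls between the WT groups (Trbv5 and Trbv23) and 0 between the LN3 organs, and a block across genotypes, added after the data were seen, left 13 lower in both pairs. The settings per transcript length, with 5830405F06Rik and without Trbv5 were also added after the data were seen. Summed Trbv counts of 2267 to 9768 limit shares, since a count of 0 allows up to 0.0307 to 0.132% of a library's Trbv counts.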

Other observations

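In LN3 thymus 1, the library with 21.1% Trbv31, the neighbours of Trbv31 on chromosome 6 were also high. Ephb6 had 894.8 CPM there, 73.9 and 22.7 CPM in LN3 thymus 2 and 3, 17.4 to 32.4 CPM in LN3 spleen, 10.7 to 17.5 CPM in WT CD8 and 174.1 to 408.7 CPM in WT thymocytes. Trpv6 had 147.5 CPM in LN3 thymus 1, 4.63 and 2.51 CPM in LN3 thymus 2 and 3, 0.626 to 2.35 CPM in LN3 spleen, 0.372 to 0.820 CPM in WT CD8 and 10.1 to 16.2 CPM in WT thymocytes. Both genes were chosen after their values were seen. edgeR called neither in LN3 thymus against WT thymocytes (adjusted p = 0.871 for Ephb6 and 0.279 for Trpv6). Neither was called in LN3 spleen against WT CD8 (0.593 and 0.298) or against LN3 thymus (0.130 and 0.122). Both were called lower in WT CD8 than in WT thymocytes (edgeR adjusted p = 0.0151 and 0.0304). The high values of LN3 thymus 1 alone were not tested.

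Between the LN3 organs, the 2 combinations of libraries most alike in Trbj shares did not carry the same T-ALL number. LN3 spleen 2 and LN3 thymus 3 had r = 0.998 for Trbv without Trbv5 and 0.993 for Trbj, both with high Xist (139007 and 141406 counts). LN3 spleen 1 and LN3 thymus 2 had 0.568 and 0.99, both with low Xist (15 and 47 counts). Over all tested genes, the deviations from the group means of these 2 combinations had r = 0.429 and 0.464, the highest of the 9 between the LN3 organs. Libraries of the same T-ALL number, 1 to 3, had 0.251, 0.648 and 0.838 for Trbv without Trbv5. For Trbj they had 0.547, 0.681 and 0.836. The labels do not say whether a number marks an animal, and whether these libraries came from the same animal was not tested.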
